A study of Homo sapiens with 6 samples.

Results

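Intermediate filaments are the rope-like fibres that give a cell its resistance to stretch, and cytolinkers are the giant proteins that tie them to actin, microtubules and adhesion sites. The 8 genes described here are the keratins KRT7, KRT8 and KRT18, which pair as type II and type I subunits in simple epithelia, the type III filament VIM, which mesenchymal and many tumour cells carry, LMNA, which makes lamin A and lamin C of the nuclear lamina, and the plakins PLEC, DST and MACF1. Their splicing events were taken from the 5 event tables of the study by gene symbol, with a mean of at least 10 junction reads over the 6 libraries. Of the 78336 events listed in all, 78 belonged to these genes and 75 met the rule with readable counts. The 75 were 13 events of KRT8, 12 of VIM, 13 of LMNA, 11 of PLEC, 9 of DST, 15 of MACF1 and 1 each of KRT7 and KRT18. By type, 52 were skipped exons (SE), 8 retained introns (RI), 6 mutually exclusive exons (MXE), 5 alternative 5ʹ splice sites (A5SS) and 4 alternative 3ʹ splice sites (A3SS). LMNA lost 2 rows to the minimum of reads, and 1 A3SS row of VIM was left out because its list of counts could be read in more than 1 way.

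NCI-H1975 is an established human lung adenocarcinoma (LUAD) cell line. Both groups were transfected, the control group with the empty plasmid and the SAM68 group with a plasmid that expresses SAM68, at 2 µg per well, and RNA was taken after 48 h. SAM68 is an RNA-binding protein that regulates splicing, and the comparison asked which splicing events change when it is overexpressed in a single cell line by transient transfection. Each group had 3 libraries with 16951876 to 19737729 SE junction reads per library, and libraries are numbered here by their place in the deposited lists. KHDRBS1, the gene of SAM68, had 311 to 328 reads per 1000000 (rpm) in its most-read event in controls and 1230 to 1276 with SAM68 (log2 fold change 1.98, adjusted p = 1.08e-21, limma), and the count includes reads of the plasmid. None of the 6 epithelial markers examined (EPCAM, CDH1, CDH3, KRT19, CLDN4 and CLDN7) has an event in the tables, which list only genes with an annotated alternative event, so the epithelial label was checked only by KRT8 and KRT18 reads. Of the other markers, MUC1 and NAPSA of lung adenocarcinoma summed to 1.47 to 4.58 rpm, DCN of fibroblasts averaged 3.33 reads, and CD68, the only one of 5 leukocyte markers with events and a gene that many cell lines express, had 91.97 to 103.8 rpm.

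Percent spliced in (PSI) is the share of transcripts that hold the alternative segment, from the junction reads of the inclusion and skipping forms, each divided by its effective length. Calls needed an adjusted p under 0.05 from a quasi-binomial test and a PSI difference of 10 points or more. Of the 75 events, 44 (58.7%) had over 95% inclusion, 13 (17.3%) under 5%, and 18 (24%) a level in between, against 52.4%, 15.4% and 32.3% among the 66396 events tested in all. The median absolute PSI difference between SAM68 and control libraries was 0.259 points for the 75 events and 1.24 points for all tested events, and a median of 441.8 reads stood behind an event of these genes against 111.3 over all. A difference of at least 10 points was measured in 4 events (5.33%, against 7.16% of all), of which the 62-nt exon of KRT8 had -9.87 points when forms were not divided by their effective lengths. PSI was higher with SAM68 in 38 events and lower in 37.

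The test called 1 of the 75 events, a pair of mutually exclusive exons of MACF1 (1.33%), against 0.0271% of all tested events. The share rests on that single event, whose groups overlapped. An unadjusted p under 0.05 was found for 14 of the 75 events (18.7%) against 8.43% of all, and the PSI ranges of the groups did not overlap for 8 events (10.7%) against 6.13% of all. The events are not independent of each other, because rMATS lists the same junction in several events. The 14 events fell into 9 sets with different junction counts, and the 8 events into 7. In 3 of the 8 the difference was under 0.1 points.

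**Figure D1:**
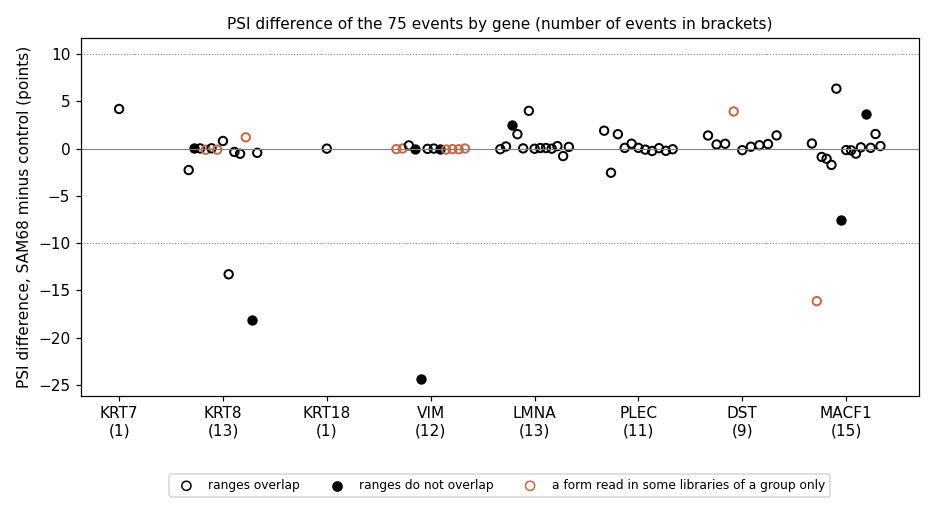
PSI difference (SAM68 minus control, in points) of each of the 75 events, by gene with the number of events in brackets. Dotted lines mark 10 points, filled points are events whose group ranges do not overlap, and orange outlines mark events in which a form had 0 reads in 1 library and at least 10 in another of the same group; only 4 events, of KRT8, VIM and MACF1, lie beyond 10 points, all of them lower with SAM68.

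KRT8 was the keratin with alternative 5ʹ exons. The gene (ENSG00000170421.12) lies on the minus strand of chromosome 12 of GRCh38, chr12:52897187-52949954, and 7 of its SE events use exons at its far 5ʹ end that lie inside an exon of KRT18 (chr12:52949118-52949590), which is transcribed from the opposite strand. A 130-nt exon (chr12:52949456-52949585), which is coding in part, had groups that did not overlap. Its PSI was 100%, 97.7% and 92.9% in controls and 89.5%, 68.97% and 77.6% with SAM68. Every SAM68 library was below every control library, and the means were 96.9% ± 3.63 and 78.7% ± 10.3 (SD, n = 3). The difference of -18.15 points had an unadjusted p of 5.08e-04 and an adjusted p of 0.223 in the quasi-binomial test, so it was not called (two-sided exact permutation p = 0.1, which is the smallest possible with 3 against 3 libraries). Without division by the effective lengths it was -10.58 points.

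The difference rested on few reads. The skipping junction had 0, 1 and 3 reads in controls and 1, 14 and 10 with SAM68, and in the first SAM68 library only 18 reads covered the event. A shorter 62-nt form of the exon (chr12:52949456-52949517) shares these skipping reads and the downstream junction. In the first SAM68 library, the event that joins the 130-nt exon to exon 2 through the same upstream junction had 0 inclusion reads. The 17 inclusion reads of the 130-nt exon there were therefore of the shared downstream junction, and its 89.5% does not tell the 2 forms apart. The PSI of the 62-nt form was 100%, 98.5% and 94.0% in controls and 98.3%, 74.2% and 80.1% with SAM68, with overlapping groups (difference -13.31 points, adjusted p = 0.426). The difference was -20.38 points without the first SAM68 library and -8.29 without the second. The other 5 events of the 62-nt to 130-nt forms joined the exons to other partners and stayed between 96.4% and 100% wherever they had reads.

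Further into KRT8, a 370-nt coding exon that overlaps exon 1 of the canonical transcript (chr12:52904658-52905027) had a PSI of 97.6% to 100% and 1251 to 3014 reads per library. Intron 3 (475 nt, chr12:52900684-52901158) was retained at 0% to 0.0591%, from at most 2 reads in any library beside 1397 to 1692 spliced reads. Its groups did not overlap, but the difference was 0.03 points (adjusted p = 0.744). Intron 2 (644 nt, chr12:52901220-52901863) was retained at 0% to 0.0862%. A 52-nt extension of the 370-nt exon, chosen after its values were seen, ranged from 0% to 18.6% in controls and from 0% to 16.1% with SAM68 on 12 to 39 reads.

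KRT18, the type I partner of KRT8, and KRT7, a type II keratin of simple epithelia, had 1 event each. Retention of intron 2 of KRT18 (339 nt, chr12:52950411-52950749) was 0%, 0% and 0.0510% in controls and 0%, 0% and 0.0173% with SAM68, against 2732 to 3300 spliced reads per library. The KRT7 event was a 61-nt extension (chr12:52245351-52245411) inside an exon of the antisense gene KRT7-AS. Its inclusion reads were 1, 2 and 0 in controls and 0, 3 and 0 with SAM68, and its PSI of 0% to 22.7% in all 6 libraries carries little information at 8 to 26 reads. GENCODE 44 lists 51 pseudogenes named after KRT8 and 68 named after KRT18, and their reads cannot be told apart from those of the genes where the sequences are identical.

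VIM (ENSG00000026025.15, plus strand, chr10:17228241-17237593) was the most deeply read gene of the group, and all 6 of its SE events stayed above 99.6% in every library. The reads of exon 8 (44 nt, chr10:17235846-17235889) show both this and the limits of a rare event. Reads that include exon 8 between exons 7 and 9 numbered 20474, 22664 and 21460 in controls and 23307, 19032 and 18838 with SAM68, while reads that skip it numbered 1, 3 and 1 against 8, 7 and 3. PSI was 99.98% to 99.99% in controls and 99.95% to 99.98% with SAM68. The groups did not overlap before rounding, the difference was -0.03 points and the adjusted p was 0.535.

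The same skipping reads enter an RI event of VIM that spans intron 7, exon 8 and intron 8 as 1 segment (904 nt, chr10:17235390-17236293). Here they are set against 16 to 33 reads that run across the ends of that segment, not against the reads of exon 8. The PSI of this event was 93.1%, 84.6% and 90.9% in controls and 56.8%, 65.9% and 72.7% with SAM68. All SAM68 libraries were below all control libraries, and the difference was -24.43 points, or -15.77 without division by the effective lengths. The event had a mean of 27.8 reads and an adjusted p of 0.536 (unadjusted p = 0.015, exact permutation p = 0.1), and the 8 skipping reads of the first SAM68 library compare with 23307 reads of the same library that include exon 8. Intron 7 on its own was retained at 0.00702% to 0.0128%, from 2 to 4 reads per library. Intron 8 on its own (404 nt, chosen after its values were seen) was retained at 0.0744% to 0.174%, from 21 to 61 reads. Most of the 16 to 33 reads across the ends of the 904-nt segment were therefore at its intron 8 end.

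An MXE event of VIM lists exons 8 and 9 as alternatives to each other, with a PSI of 41.6% to 43.1% in all 6 libraries (difference 0.33 points, adjusted p = 0.891; chosen after its values were seen). In the SE table the same exons were each included at 99.68% or more, so reads of transcripts that hold both exons enter the MXE counts. The same was true of the MXE events of LMNA and PLEC, whose exons were each included at 98.72% or more as SE.

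**Figure D2:**
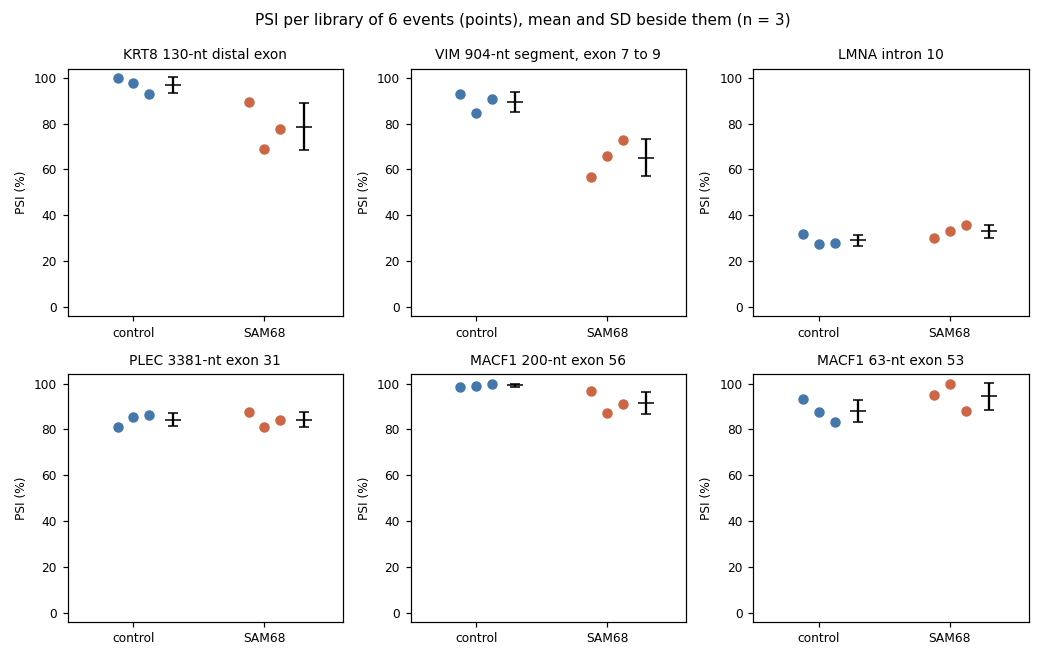
PSI in percent of 6 events in the 3 control (blue) and 3 SAM68 (orange) libraries, with the group mean and SD beside the points. The KRT8 130-nt exon, the 904-nt VIM segment and the MACF1 200-nt exon had SAM68 values below all control values, while LMNA intron 10, PLEC exon 31 and the MACF1 63-nt exon had overlapping groups.

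LMNA (ENSG00000160789.19, plus strand, chr1:156082573-156140081) makes lamin A and lamin C from shared exons up to exon 10. Lamin A continues with exon 11, while lamin C reads on past exon 10 into intron 10 and ends there.

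Retention of intron 10 (744 nt, chr1:156137744-156138487) was chosen after its values were seen. Its PSI was 31.6%, 27.4% and 27.9% in controls and 30.01%, 33.3% and 35.6% with SAM68. The first library of each group lay in the range of the other group. The means were 29.0% ± 2.30 and 32.95% ± 2.80 (SD, n = 3), with a difference of 3.99 points (adjusted p = 0.536). Reads across the ends of intron 10 numbered 318 to 352 in controls and 284 to 325 with SAM68, and exon 10 to exon 11 junction reads numbered 381 to 440 and 257 to 379. A level counted from junction reads is not the ratio of the lamin C and lamin A mRNAs, since the lamin C mRNA crosses only the upstream border of the intron.

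Elsewhere LMNA was close to constitutive. Exon 2 (157 nt, chr1:156130617-156130773), the most-read event, was included at 99.8% to 100%. A 1014-nt segment that runs from the start of intron 10 to the end of exon 11 was listed at 99.3% to 100% as an A5SS event. Its skipping reads, at most 2 in any library, were those that skip exon 11 as SE. Reads that join exon 10 to exon 11 do not count as skipping there. The level therefore does not show retention of intron 10, which had a PSI of 27.4% to 35.6% as RI. The MXE event of exons 9 and 10 was 84.2%, 83.8% and 85.2% in controls and 86.2%, 87.3% and 87.3% with SAM68. The groups did not overlap, the difference was 2.51 points and the adjusted p was 0.369, but both exons were included at 98.79% or more as SE.

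PLEC (ENSG00000178209.15, minus strand, chr8:143915153-143976734) makes plectin, which binds actin with its first part, dimerises through a long rod and binds intermediate filaments with its last part. Exon 31 (3381 nt, chr8:143922504-143925884) codes for the rod, and plectin without it is known as rodless. This exon was included at 81.0%, 85.4% and 86.1% in controls and at 87.8%, 81.0% and 84.0% with SAM68. The groups overlapped almost fully, with means of 84.2% ± 2.75 and 84.3% ± 3.38 (SD, n = 3) and a difference of 0.07 points (adjusted p = 0.99). Reads that skip the exon numbered 56 to 76 in controls and 45 to 75 with SAM68.

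Short exons of 15 nt and 36 nt beside exon 3 of PLEC, in the part that codes for actin binding, were read almost nowhere (both chosen after their values were seen). The 15-nt exon had 1 inclusion read in the second control library and 0 in the other 5, beside 238 to 391 skipping reads. The 36-nt exon had 1 read in the first control library, 1 in the third SAM68 library and 0 elsewhere. An A5SS event that adds 12 nt to the end of exon 8 was used at 71.8% to 74.3% in controls and 71.9% to 78.7% with SAM68 (adjusted p = 0.783; chosen after its values were seen). Exon 18 (96 nt), the most-read event of PLEC, was included at 98.5% to 100%.

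DST (ENSG00000151914.19, minus strand, chr6:56457987-56954830) and MACF1 (ENSG00000127603.25, plus strand, chr1:39081316-39487177) are related plakins that link actin and intermediate filaments or actin and microtubules. Near the 3ʹ end of both genes, in the part that codes for microtubule binding, short exons stand in the same order between flanks of like length: an 18-nt exon between exons of 75 and 118 nt, then an exon of 69 nt in MACF1 and 72 nt in DST, then an exon of 111 nt. Except for the 18-nt exon of MACF1, these exons were chosen after their values were seen. The 18-nt and 111-nt exons are shown because their sequences can be set side by side while their inclusion differed between the genes, with exons in capitals and intron in lower case (GRCh38, 5ʹ to 3ʹ on the strand of each gene, with 30 or 10 bases of intron on each side; chr1:39465065-39465142, chr6:56468952-56469029, chr1:39480910-39481040 and chr6:56463036-56463166):
MACF1 18-nt exon 95: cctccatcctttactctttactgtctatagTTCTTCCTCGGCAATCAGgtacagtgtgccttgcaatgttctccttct
DST 18-nt exon 98: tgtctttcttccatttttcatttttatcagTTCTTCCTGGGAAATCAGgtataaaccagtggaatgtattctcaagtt
MACF1 111-nt exon 99: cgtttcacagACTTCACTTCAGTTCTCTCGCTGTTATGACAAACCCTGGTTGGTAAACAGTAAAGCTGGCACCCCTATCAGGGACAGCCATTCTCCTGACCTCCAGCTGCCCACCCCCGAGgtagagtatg
DST 111-nt exon 102: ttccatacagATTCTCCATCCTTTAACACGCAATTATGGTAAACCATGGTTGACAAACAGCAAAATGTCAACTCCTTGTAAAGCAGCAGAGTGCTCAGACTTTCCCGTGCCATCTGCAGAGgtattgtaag

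The 18-nt exons shared 16 of 18 bases (88.9%). Counted from 1 at the 5ʹ end of the exon, with the MACF1 base first, they differ by C9G and C12A. The 111-nt exons shared 60 of 111 bases (54.1%) in an ungapped comparison.

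The 18-nt exon of MACF1 was a minor form in every library. Its PSI was 7.33%, 10.7% and 8.43% in controls and 13.9%, 12.6% and 11.0% with SAM68. The SAM68 values were all above the control values, with 23, 40 and 28 inclusion reads against 46, 35 and 35. The means were 8.83% ± 1.74 and 12.5% ± 1.44 (SD, n = 3), and the difference of 3.64 points was not called (unadjusted p = 0.0489, adjusted p = 0.565, exact permutation p = 0.1).

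The matching exon of DST was all or nothing between libraries. Its inclusion reads numbered 59, 0 and 86 in controls and 0, 59 and 82 with SAM68, while skipping reads numbered 50, 80 and 73 and 41, 38 and 57. PSI was therefore 51.1%, 0% and 51.0% against 0%, 57.9% and 55.99%. One library of each group was at 0 and the others lay within 7 points of each other. The 0 of 80 reads in the second control library leaves room for a share of reads of at most 3.75%, and the 0 of 41 in the first SAM68 library at most 7.32% while the other libraries had 54.1% to 60.8% of their reads in the inclusion form. The difference of the means was 3.92 points (adjusted p = 0.567). With a control library left out it was 12.44, -13.09 and 12.42 points for controls 1, 2 and 3, and with a SAM68 library left out, in the same order, 22.9, -6.03 and -5.10 points.

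The 69-nt exon of MACF1 was included at 0% to 0.362% and the 72-nt exon of DST at 0% to 1.21%. The 111-nt exon was skipped in most MACF1 transcripts and held by nearly all DST transcripts. In MACF1 its PSI was 4.33%, 8.23% and 11.3% in controls and 9.29%, 7.43% and 11.8% with SAM68. In DST it was 100%, 97.8% and 100% in controls and 99.1%, 100% and 100% with SAM68. The lowest DST library stood above the highest MACF1 library, while within each gene the SAM68 and control libraries overlapped (adjusted p = 0.565 for MACF1 and 0.754 for DST).

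**Figure D3:**
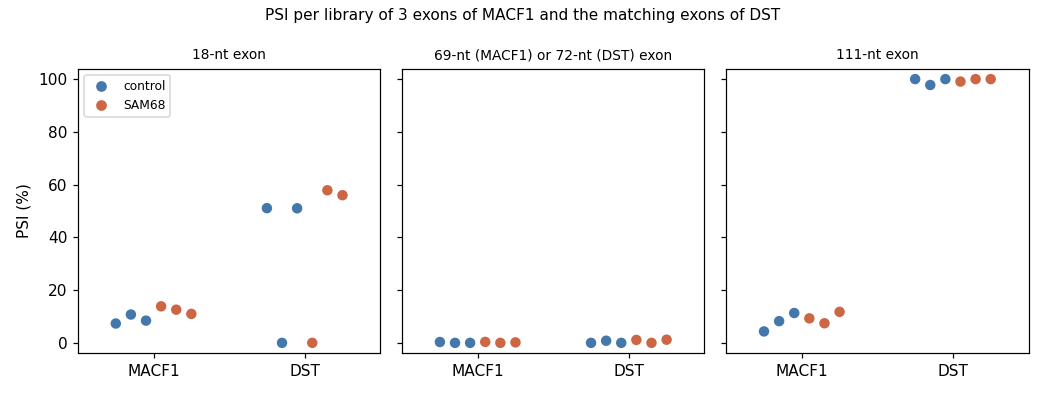
PSI in percent of 3 exons of MACF1 and the matching exons of DST in each control (blue) and SAM68 (orange) library. The 111-nt exon stands at 4.33% to 11.8% in MACF1 and at 97.8% to 100% in DST, and the 18-nt exon of DST is at 0% in 2 libraries and at 51.0% to 57.9% in the other 4.

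MACF1 also held the only called event. The MXE event lists exon 71 (232 nt, chr1:39437777-39438008) and exon 72 (227 nt, chr1:39439274-39439500) as alternatives between a 9-nt exon (chr1:39436482-39436490) and exon 73. PSI refers to the form with exon 71, the exon nearer the 5ʹ end, whose count sums the junctions of exon 71 with the 9-nt exon and with exon 73. Reads of this form numbered 0, 150 and 48 in controls and 0, 0 and 0 with SAM68, and reads of the form with exon 72 numbered 265, 297 and 274 and 276, 259 and 190. PSI was 0%, 33.6% and 14.9% in controls and 0% in each SAM68 library. The first control library equalled the SAM68 libraries, so the groups overlapped. The 0 of 725 reads over the 3 SAM68 libraries leaves room for at most 0.414% of the reads counted for the event. As in the other MXE events, reads of transcripts that hold both exons enter the counts. Exon 72 was included beside exon 71 at 99.63% or more as SE, and its junction with exon 73 counts for the form with exon 72. These values are therefore not shares of a choice between exons 71 and 72.

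The difference of -16.15 points had an adjusted p of 0.00326 in the quasi-binomial test. The dispersion of the event itself, the factor by which libraries of a group spread beyond counting error, was 31.6, while the test moderates it towards the value shared by all MXE events. With the larger of the own and the shared dispersion the adjusted p was 0.542, with the own dispersion alone 0.863 and with a limma fit to logit PSI 0.872, and over all the alternative settings it ranged from 1.56e-48 to 0.872. The call was also lost whichever of the 6 libraries was left out, and the difference was -7.45 points without the second control library and -24.23 without the first. Exon 71 itself was read in every library. In the SE event of exon 72, which lies between exons 71 and 73 and was chosen after its values were seen, the form that joins exons 71, 72 and 73 had 436 to 589 reads per library (99.6% to 100%). The junction of exon 71 with exon 73 had 1 read in the third control library and 0 in the other 5, so the reads of the MXE form with exon 71 were those that join it to the 9-nt exon, with at most that 1 exception.

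Among the other MACF1 exons, the 200-nt exon 56 (chr1:39381953-39382152) had a PSI of 98.7%, 98.9% and 100% in controls and 96.6%, 87.3% and 90.9% with SAM68. The groups did not overlap, with means of 99.2% ± 0.706 and 91.6% ± 4.71 (SD, n = 3), and skipping reads numbered 1, 1 and 0 against 2, 7 and 5. The difference of -7.59 points had an adjusted p of 0.403 (unadjusted p = 0.00524, exact permutation p = 0.1), and it was -4.02 points without division by the effective lengths. Exon 53 (63 nt, chr1:39378461-39378523; chosen after its values were seen) had 93.1%, 87.6% and 83.3% against 94.99%, 100% and 88.0%, with overlapping groups and a difference of 6.34 points (adjusted p = 0.565), or 3.99 without the third control and 3.51 without the second SAM68 library. Exon 100 (130 nt), the most-read event, was included at 99.2% to 100%. A 937-nt A3SS segment that holds exon 100 and the intron that follows it was listed at 98.4% to 100%, with the same skipping reads. Its 254 to 441 inclusion reads per library were those that join exon 98 to exon 100, the reads that skip the 111-nt exon 99. The level therefore does not show retention of that intron. In DST, the 1472-nt exon 61 stood at 98.6% to 100% and the 164-nt exon 94 at 95.95% to 100%.

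Some forms of KRT8, VIM, DST and MACF1 were read in some libraries of a group and not in others. In 11 of the 75 events (14.7%), against 4.34% of all tested events, a form had 0 reads in 1 library and at least 10 in another of the same group. Because junctions are shared, the 11 events come from 6 forms. VIM held 6 of the 11 events, KRT8 3, and DST and MACF1 1 each, while KRT7, KRT18, LMNA and PLEC held 0. Reads that join exon 7 of VIM to exon 10 numbered 11 in the second SAM68 library and 0 in the other 5, and this form alone gave 4 of the 11 events. Reads that join exon 8 of VIM to exon 10 numbered 0, 0 and 14 in controls and 8, 0 and 6 with SAM68. In KRT8, reads that skip the 370-nt exon numbered 13, 9 and 0 against 0, 0 and 15, and reads that include the 130-nt exon before exon 2 (chosen after their values were seen) numbered 54, 65 and 52 against 0, 53 and 69. The remaining forms were the 18-nt exon of DST and the MXE form of MACF1 that joins the 9-nt exon to exon 71, whose own dispersions of 31 and 31.6 were the only ones above 30 among the 75 events. The first SAM68 library had 0 reads in 5 of the 6 forms, and the other libraries in 2 or 3, while its total of 19737729 SE junction reads was the highest of the 6 libraries.

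**Figure D4:**
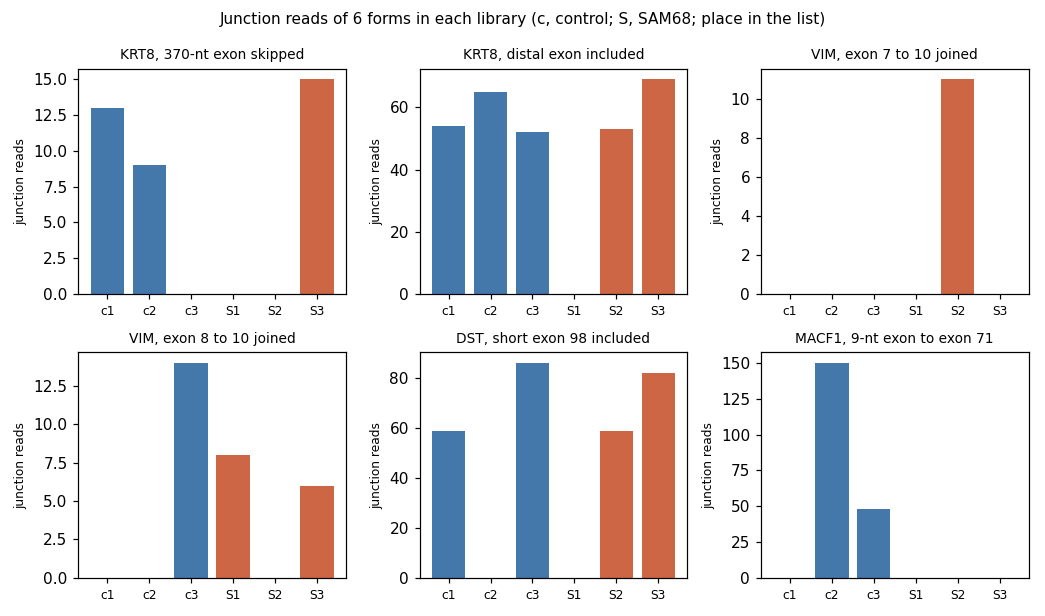
Junction reads of the 6 forms that had 0 reads in 1 library and at least 10 in another of the same group, as bars for the 3 control (c1 to c3) and 3 SAM68 (S1 to S3) libraries in the order of the lists. The DST 18-nt exon is missing from 1 library of each group, and the MACF1 form that joins the 9-nt exon to exon 71 was read in 2 control libraries, with 150 and 48 reads.

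The level of each gene was read from its most-read event, as reads per 1000000 of such reads. None of the 8 genes passed an adjusted p of 0.05 with a log2 fold change of at least 1, a threshold that 0.0493% of the 10146 genes tested passed. An unadjusted p under 0.05 from limma was found for 4 of the 8 (KRT7, KRT8, KRT18 and MACF1), against 12.1% of all genes. These are bulk RNA values, in which fewer cells with a transcript and less of it per cell cannot be told apart, and levels are not compared between genes. VIM had 4052, 4194 and 4199 rpm in controls and 4316, 4029 and 4061 with SAM68, with overlapping groups (log2 fold change -0.01, standard error 0.03, adjusted p = 0.967 from limma, as for all genes here). LMNA had 578 to 606 rpm against 611 to 622, without overlap (log2 fold change 0.05, adjusted p = 0.743). KRT18 had 471, 484 and 492 rpm against 521, 524 and 530, without overlap (log2 fold change 0.12, adjusted p = 0.305).

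KRT8 had 520, 253 and 236 rpm against 248, 235 and 230, so that the first control library stood apart. That excess was local to the junctions of the 370-nt exon, since the spliced reads of intron 2 of KRT8 numbered 1096, 1159 and 1106 in controls and 1419, 1152 and 1132 with SAM68. The log2 fold change was -0.41 (adjusted p = 0.254), and -0.04 without the first control library. KRT7 had 4.48, 3.02 and 3.51 rpm against 1.26, 1.84 and 2.20 from 19 to 26 and 8 to 12 reads of its rare event, without overlap (log2 fold change -0.89, adjusted p = 0.382). PLEC (log2 fold change -0.08, adjusted p = 0.757), DST (-0.21, 0.482) and MACF1 (-0.26, 0.201) had overlapping groups. With a library left out, the log2 fold change of DST was -0.33 to -0.13.

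Partner genes of the filaments and linkers were read in the same fit. No event was called among 12 tested events of other intermediate filaments (KRT15, KRT80, LMNB1 and LMNB2 were the genes with events), 77 of other plakins and nuclear linkers, 58 of desmosome and hemidesmosome genes, 44 of lamin partners and 29 of genes that act at microtubule ends. At an unadjusted p under 0.05 the counts were 0, 6, 1, 6 and 1 events, which is 0%, 7.79%, 1.72%, 13.6% and 3.45% of the tested events of each list beside 8.43% of all. By junction reads no gene of these lists was called either. An MXE event of CD151, a tetraspanin of hemidesmosomes that was chosen after its values were seen, had an adjusted p of 0.0327, with a PSI of 66.4%, 65.1% and 65.7% in controls and 59.6%, 61.4% and 58.9% with SAM68. Its adjusted p was 0.096 with the larger of the own and the shared dispersion, and its difference of -5.77 points was under the limit of 10 points.

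Exon length was not used in the choice of genes. Of the 44 distinct exons in their SE events, 28 (63.6%) were a multiple of 3 long, against 40.5% of 38685 distinct exons over all tested SE events, a difference that was not tested. The U/A-rich letters TAAA and TTAA are the core of sites that SAM68 is known to bind. They were counted on the strand of the transcript in the 200 nt on each side of the named exons, with overlapping matches counted separately. Where the intron is shorter, as upstream of the 130-nt exon of KRT8, the window reaches into the neighbouring exon. The median over all tested exons was 2 matches upstream and 2 downstream, and 71.4% of exons had at least 1 on either side. The 200-nt exon 56 of MACF1 had 4 upstream and 7 downstream, a downstream count that 10.1% of all exons reached. Exon 100 of MACF1 and exon 61 of DST each had 7 upstream, which 10.9% of all exons reached, and 1 downstream. The 18-nt exon of MACF1 had 3 upstream and 0 downstream, the 18-nt exon of DST 1 and 6, and the 130-nt exon of KRT8 0 and 0. These counts are a description of the letters in the windows and were not tested.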

How the data were processed

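RNA from 3 control and 3 SAM68 libraries of NCI-H1975 cells was sequenced by the authors. Per the labels and the methods of the study, reads were filtered and trimmed with fastp (0.20.0), aligned with HISAT2 (2.1.0) to GRCh38, and listed as splicing events with rMATS, whose version is not given in the sources used here. The 5 deposited tables hold, as the authors made them, raw counts of junction reads of both forms (the measure used here), inclusion levels and effective lengths. They also hold the authors' p-values, FDR and level differences, which are their own comparison and were not used. Control was assigned to the first list of each row, since a PKM splicing plot of the study names its libraries so. No other column of values per library was found (0 unused). The methods of the study call the 3 libraries of a group biological replicates.

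Of 275 A3SS rows whose lists a spreadsheet had regrouped, 163 were recovered from the listed levels and 112 were left out. PSI was averaged over libraries with reads. A quasi-binomial model was fitted to the 66396 events that averaged 10 reads or more. Dispersions were moderated within each type by the squeezeVar function (limma 3.58.1, R 4.3.3) and then raised to at least 1 (shared values 1.58 for SE to 2.17 for MXE), with F tests and Benjamini-Hochberg adjustment within each type. For genes, limma (eBayes with trend) tested log2(rpm + 0.5). On simulated counts for all 66396 events, 99 of 200 events shifted by 30 points (49.5%) and 0 unchanged events were called, and for 10146 genes 200 of 200 changed genes and 1 unchanged one. The simulation gave every event the same dispersion, slightly under the shared values, and shifted only events of intermediate share with at least 50 reads. It does not cover false calls for events as spread as the called MACF1 event (own dispersion 31.6). Events were named where called, most read, longest with at least 50 reads, among the 2 largest differences without overlap per gene at 50 reads, or listed by the study. Others are marked as chosen after their values were seen. The members and lists were chosen with earlier results of these data known. Exon numbers follow the canonical transcripts of GENCODE 44. Limits for a count of 0 use 3 reads and cover counting error only. It is not given in the sources used here whether counting used strand.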

Additional observations from a re-analysis of the deposited data

How the results depend on the processing

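The count of called events in these genes was 1 and remained 1 with PSI not divided by the lengths, with at least 20 reads, with all types adjusted together, without the limit of 10 points and, in an alternative chosen after seeing the data, with dispersions raised to 1 before moderation (94 calls over all events instead of 18). It was 0 without a minimum of reads, with the own dispersion, with the larger dispersion, with limma on the logit and where calls needed groups without overlap, and 3 with the likelihood ratio test at a dispersion of 1, which added both KRT8 exons (-18.15 points, adjusted p = 1.56e-04; -13.31 points, adjusted p = 0.00153) and calls 1357 events in all. Leaving out any 1 library gave 0 calls. The count over all events then fell from 18 to between 2 and 3, and without a minimum of reads to 3, so these settings make fewer calls in general. Called genes were 0 in each alternative.

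No paired analysis was possible because the list columns carry no replicate numbers.

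Without division by the effective lengths, 3 named differences of over 5 points moved by over 1.5 times (KRT8 130-nt exon -10.58, VIM segment -15.77, MACF1 exon 56 -4.02), and otherwise some that were under 2 points. With a library left out, the called MACF1 difference was -24.23 to -7.45 points. Signs of uncalled differences turned for DST exons (18-nt -13.09 to 22.9, 111-nt -0.31 to 0.8, exon 94 -1.35 to 1.18), KRT8 (52-nt extension -7.27 to 2.84, intron 2 -0.01 to 0.04, 370-nt exon -0.52 to 0.66), KRT18 (-0.02 to 0.01), KRT7 (-3.37 to 7.97), VIM exon 9 (-0.03 to 0.02), MACF1 (69-nt -0.01 to 0.18, 111-nt -0.28 to 3.21) and PLEC (exon 31 -1.68 to 1.69, 36-nt -0.07 to 0.11, 12-nt -0.08 to 3.3). For log2 levels, VIM ran from -0.04 to 0.01 and PLEC from -0.13 to 0 without a library. With summed SE reads VIM was 0.02 and LMNA -0.06, and with median of ratios VIM was 0.03.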
